A study of Homo sapiens with 4 samples.

Results

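Wnt proteins are secreted ligands that act on Frizzled receptors. In the canonical branch this stops the destruction complex from degrading β-catenin, which then works with factors of the TCF/LEF family to switch on target genes, while the noncanonical branch acts through planar cell polarity and other routes. The pathway is held in check outside the cell by secreted antagonists, such as SFRP proteins, which bind Wnt ligands, and DKK1, which blocks the co-receptors LRP5 and LRP6. It is held in check inside the cell by AXIN2, a scaffold of the destruction complex that is itself a target of β-catenin.

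The mRNA of 10 such genes was followed in anaplastic thyroid cancer (ATC) cells. They were chosen by name out of 26485 gene names, with the levels in these libraries already known: 3 secreted antagonists (SFRP1, DKK1 and DKK3), 3 ligands (WNT5A, WNT5B and WNT7B), 2 receptors (FZD2 and FZD7) and 2 readouts of the canonical branch (AXIN2 and LEF1). SFRP1 was singled out because its change in SW1736-PTX was the largest of all genes once rows of the same gene name were summed, so the values of that comparison describe the choice and are not independent of it.

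SW1736 and 8505C are established human lines derived from ATC. SW1736-PTX and 8505C-PTX were obtained from them by 6 months of paclitaxel, a taxane that stabilizes microtubules, with the dose raised stepwise from 1 nM up to 1.5 µM and held there afterwards, whereas the wild-type (wt) cells were not given the drug. Each PTX line is 1 selection, and whether it is clonal is not given in the sources used here. Each of the 4 conditions was sequenced as 1 mRNA library of 43.5 to 57.9 M aligned reads. Since no condition was repeated, the spread between cultures is unknown, no p-value is given, and the intervals below cover counting error only. In such bulk libraries, fewer cells that express a gene and less of its RNA per cell cannot be told apart.

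The library labelled SW1736-PTX stood closer to the other parental line than to its own. Across 14692 genes above 0.5 FPKM in at least 1 library, Pearson's r of log2(FPKM + 0.1) was 0.767 with SW1736 wt, 0.873 with 8505C wt and 0.933 with 8505C-PTX, across genes that are not independent replicates. Of 7 thyroid follicular cell markers, 3 were above 0.5 FPKM in any library. PAX8 was at 38.2 FPKM in SW1736 wt and between 0.123 and 0.206 in the other libraries, FOXE1 was at 26.6 and between 0.0443 and 0.511, and NKX2-1 was listed at 0 in that library and between 30.5 and 39.0 in the others. TSHR and SLC5A5 were listed at 0 in all 4 libraries, and TG did not exceed 0.00586 FPKM. The summed FPKM of 6 fibroblast markers was 258 in SW1736 wt and between 0.335 and 10.0 in the other libraries. Nearly all of the 258 came from COL1A1 and COL1A2, while PDGFRB of the same list went from 0.402 to 6.08 in SW1736 and from 0.0922 to 6.49 in 8505C. The sum of 5 epithelial markers ranged from 854 to 2411, with KRT8 and KRT18 high throughout and EPCAM at 0.0806 or less, but KRT19 went from 266 to 0.535 between the SW1736 libraries and was listed at 0 in 8505C. That of 5 leukocyte markers ranged from 6.75 to 47.5, with PTPRC at 0.0197 or less. Most of each leukocyte sum was CD68, which went from 5.84 to 23.6 between the SW1736 libraries and from 21.7 to 43.0 in 8505C. CD14 reached 4.50 in 8505C-PTX and did not exceed 0.894 elsewhere. For 4 endothelial markers the sum ranged from 0.0187 to 55.9, of which CDH5 in 8505C wt made up nearly all. The part of these differences in the results below was not tested, paclitaxel selection and a difference in cell identity cannot be told apart here, and the changes of the 10 genes in SW1736-PTX are given against SW1736 wt and against 8505C wt.

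Changes are log2((first + 0.1)/(second + 0.1)) of the FPKM, a read abundance scaled to gene length and depth, and the added 0.1 makes the change of weakly expressed genes look smaller than it is. Genes above 0.5 FPKM in 1 or both libraries of a pair were compared, and those that differed by over 1.5 on the log2 scale, up or down, were called. Both limits are those of the study. In SW1736, 9 of the 10 genes were compared, 2 of them (SFRP1 and AXIN2) were called higher in SW1736-PTX and 3 (DKK1, WNT5B and FZD7) lower, where 25.9% of all 14202 genes compared were called (15.7% higher and 10.2% lower). In 8505C, WNT5A and FZD7 of 9 genes compared were called higher in 8505C-PTX and none was called lower, where 20.9% of 13794 genes were called (15.0% higher and 5.89% lower). These 2 of 9 are a share near the background. Set against 8505C wt instead of its own parental library, SW1736-PTX had 3 genes called higher (DKK3, WNT5A and FZD7) and none lower, with a background of 20.4% (15.1% higher and 5.23% lower). The comparisons share libraries and are given side by side.

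**Figure D1:**
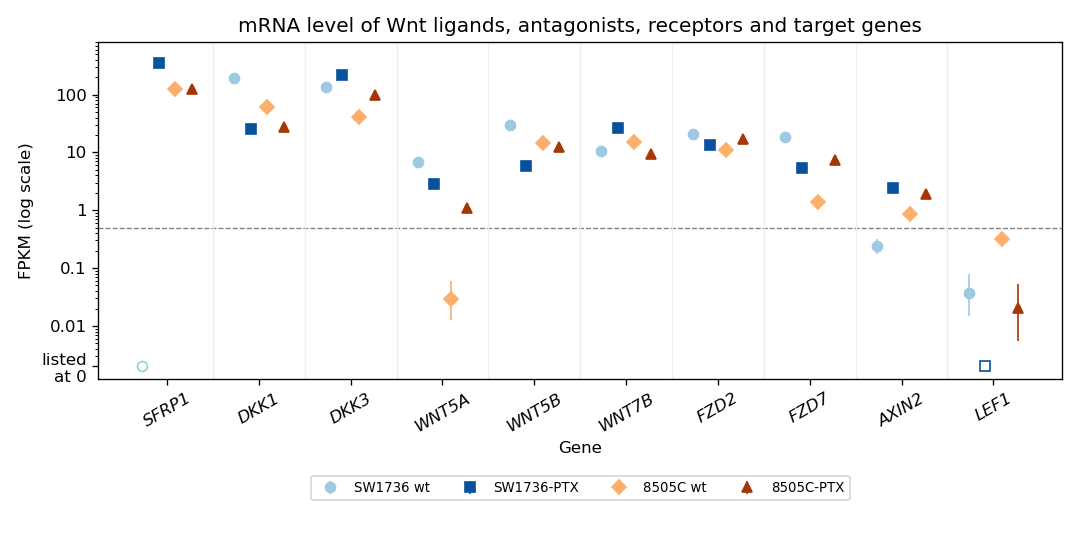
FPKM (log axis) of the 10 genes in each of the 4 libraries, with the 95% Poisson counting interval as a vertical line where it is wider than the symbol. Open symbols mark genes listed at 0 and the dashed line marks 0.5 FPKM. SFRP1 is above 100 FPKM in 3 libraries and listed at 0 in SW1736 wt, and LEF1 is below 0.5 in all 4.

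Among the antagonists, SFRP1 had the widest range. SFRP1 (chromosome 8, 41261957 to 41309471, hg38, minus strand) was listed at 0 in wt cells of SW1736, and its level was 353 FPKM in the PTX cells of that line, 127 in 8505C wt and 125 in 8505C-PTX. It was thus listed at 0 in 1 library only, and both 8505C libraries held it at a high level with or without paclitaxel. In SW1736 wt, 3 reads on its 4464-base transcript would correspond to 0.0137 FPKM. The log2 fold change of SW1736-PTX over SW1736 wt was 11.79, rank 1 of the 14202 gene names after summing rows, and depends on the number added to a level of 0. Against 8505C wt the log2 fold change was 1.47, a 2.78-fold higher level that missed the limit, and 8505C-PTX differed from 8505C wt by -0.03 (95% counting interval of the log2 ratio -0.05 to -0.00484).

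DKK1, an antagonist of the canonical branch and itself a target of β-catenin, went the other way. DKK1 (chromosome 10, 52314281 to 52317657, plus strand) was at 193 FPKM in wt and 25.9 in PTX cells of SW1736, and at 62.2 in wt and 27.3 in PTX cells of 8505C. Both wt libraries were above both PTX libraries, which lay within 1.06-fold of each other. The log2 fold change was -2.89 in SW1736, a call, and -1.18 in 8505C, short of the limit. Against 8505C wt, SW1736-PTX had a value of -1.26, also short of it.

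The bases in front of DKK1 are shown because, of the 9 chosen genes compared, it was lower in both PTX lines by the largest amounts. Another reason is that its promoter holds letters that TCF/LEF factors are known to bind. The window of 250 bases before the RefSeq start on the plus strand of chr10:52314031-52314280 (hg38) is printed with CTTTGA or its reverse complement TCAAAG in capitals.
DKK1: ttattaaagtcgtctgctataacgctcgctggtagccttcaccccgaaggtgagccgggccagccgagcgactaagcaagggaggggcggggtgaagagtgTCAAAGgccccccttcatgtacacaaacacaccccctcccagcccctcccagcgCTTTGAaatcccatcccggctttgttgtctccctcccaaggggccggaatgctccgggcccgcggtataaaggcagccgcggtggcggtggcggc
The matches begin at positions -149 and -95 relative to the start and do not overlap. Of 35116 RefSeq promoter windows of this length, 11.2% held at least 1 match on either strand and 0.977% held 2 or more. Since the DKK1 window was shown in part for its matches, these shares do not measure how unusual it is. Windows were found for 4 of the 10 genes, and the 5 windows of WNT5A, WNT5B and LEF1 held 0 matches. A match is a run of letters and not a measured binding site, and other forms of the TCF/LEF site were not searched for.

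DKK3, a secreted relative of DKK1 that acts less clearly on Wnt signalling, did not follow it. DKK3 (chromosome 11, 11962996 to 12009370, minus strand) was at 135 FPKM in wt and 223 in PTX cells of SW1736, and at 40.6 in wt and 99.3 in PTX cells of 8505C. Both PTX libraries were above their own parental library, by log2 fold changes of 0.72 and 1.29, neither of them a call. The library labelled SW1736-PTX was 5.49-fold above 8505C wt, a log2 fold change of 2.45 and a call.

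Among the ligands, WNT5A and WNT5B, close relatives known for noncanonical signalling, had their highest level in SW1736 wt. WNT5A (chromosome 3, 55465715 to 55487642, minus strand) was at 6.86 FPKM in wt and 2.87 in PTX cells of SW1736, and at 0.0297 in wt and 1.09 in PTX cells of 8505C. The level in 8505C wt corresponds to about 7.56 reads, and its counting interval ran from 0.0125 to 0.0597 FPKM. The PTX libraries thus lay between the wt libraries, with a log2 fold change of -1.23 in SW1736 and of 3.20 in 8505C, where the change was a call. With 1 in place of 0.1 added to the FPKM, the change in 8505C was 1.02 and no longer a call. The value of SW1736-PTX over 8505C wt was 4.52, with a counting interval of 5.58 to 7.85 for the log2 ratio without an added number.

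WNT5B (chromosome 12, 1617056 to 1647212, plus strand) was at 30.3 FPKM in wt and 5.92 in PTX cells of SW1736, and at 14.4 in wt and 12.3 in PTX cells of 8505C. Its fall in SW1736-PTX was 5.11-fold, a log2 fold change of -2.33, while in 8505C it differed by -0.23 and against 8505C wt SW1736-PTX differed by -1.27. For WNT5B the deposited coverage, scaled to depth, was 0.525 of the FPKM in each of the 4 libraries, where it was 1.00 for SFRP1, DKK1, WNT7B, FZD2, FZD7 and AXIN2, so that its level beside other genes depends on the column used but its changes do not.

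WNT7B, a ligand of canonical signalling in epithelia, was at its highest in SW1736-PTX. WNT7B (chromosome 22, 45920366 to 45977128, minus strand) was at 10.7 FPKM in wt and 26.6 in PTX cells of SW1736, and at 15.2 in wt and 9.54 in PTX cells of 8505C. It was higher in the PTX library of SW1736 and lower in that of 8505C, with log2 fold changes of 1.31 and -0.67, neither of which passed the limit. Against 8505C wt the value of SW1736-PTX was 0.80.

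The receptors FZD2 and FZD7 are encoded by single-exon genes (chromosome 17, 44557444 to 44561262, and chromosome 2, 202034587 to 202038437, both plus strand) and bind Wnt ligands through a cysteine-rich domain. FZD2 varied least of the 10 genes, from 11.003 FPKM in 8505C wt to 20.9 in SW1736 wt, with 13.7 in SW1736-PTX and 17.0 in 8505C-PTX. Its log2 fold changes were -0.61 in SW1736 and 0.63 in 8505C, and SW1736-PTX was above 8505C wt by 0.31. FZD7 was at 18.5 FPKM in wt and 5.35 in PTX cells of SW1736, and at 1.41 in wt and 7.52 in PTX cells of 8505C. It fell by 1.77 on the log2 scale in SW1736 and rose by 2.33 in 8505C, and was called in opposite directions. As with WNT5A, both PTX libraries lay between the wt libraries, which were 13.0-fold apart. Against 8505C wt, FZD7 in SW1736-PTX was higher by 1.85, and with 1 added to the FPKM this value was 1.40 and no longer a call.

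The readouts were low. AXIN2 (chromosome 17, 65528565 to 65561622, minus strand) was at 0.240 FPKM in SW1736 wt (counting interval 0.178 to 0.317), 2.41 in SW1736-PTX (2.22 to 2.61), 0.869 in 8505C wt (0.740 to 1.01) and 1.95 in 8505C-PTX (1.77 to 2.14). Both PTX libraries were above both wt libraries and the counting intervals of a PTX library and its own parental library did not overlap. The log2 fold change was 2.89 in SW1736, a call, and 1.08 in 8505C, short of the limit, and it was 1.38 for SW1736-PTX over 8505C wt. With 1 added to the FPKM the value in SW1736 was 1.46, no longer a call. LEF1 (chromosome 4, 108047545 to 108168956, minus strand), a nuclear partner of β-catenin and also a target gene, was at 0.0377 FPKM in wt and 0 in PTX cells of SW1736, and at 0.315 in wt and 0.0206 in PTX cells of 8505C. It was below 0.5 FPKM throughout and was compared in neither line, so the pair of readouts rested on AXIN2.

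**Figure D2:**
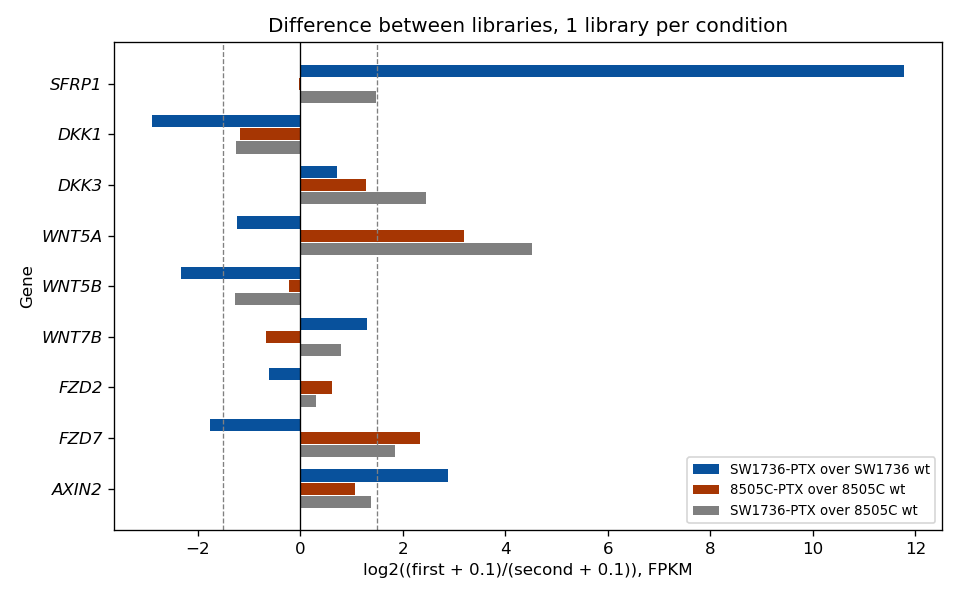
Log2 fold change of the FPKM for the 9 genes that could be compared, with 1 bar per comparison and dashed lines at -1.5 and 1.5. The bar of SFRP1 reaches 11.79 against SW1736 wt and 1.47 against 8505C wt, and the bars of FZD7 point in opposite directions in SW1736 and in 8505C.

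Between the untreated lines, 6 of the 9 genes differed beyond the limit (17.6% of all 13457 genes compared, 7.73% higher and 9.92% lower in 8505C wt), with SFRP1 and AXIN2 higher in 8505C wt and DKK1, DKK3, WNT5A and FZD7 higher in SW1736 wt. AXIN2 was only just past the limit, at 1.51. Between the PTX lines 1 of 9 differed beyond the limit (7.79% of 13986, 3.70% higher and 4.09% lower in 8505C-PTX). This was SFRP1, which was 2.83-fold higher in SW1736-PTX, only just past the limit. The distance between the lines was smaller among the PTX libraries than among the wt libraries for 8 of the 9 genes, the exception being WNT7B, which went from 0.51 to 1.47. For WNT5B the distances were nearly equal, 1.06 and 1.04. Of all 14692 genes above 0.5 FPKM in at least 1 library, 65.2% had the smaller distance in the PTX pair. SFRP1, DKK1, WNT5B, WNT7B, FZD2 and AXIN2 were nearer in SW1736-PTX to 8505C wt than to SW1736 wt, 6 of 9 genes against 56.0% of all genes, while DKK3, WNT5A and FZD7 were nearer to SW1736 wt. The 10 genes were chosen with these levels known, and SFRP1 by its change in SW1736. These distances and counts are therefore not independent of the choice.

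**Figure D3:**
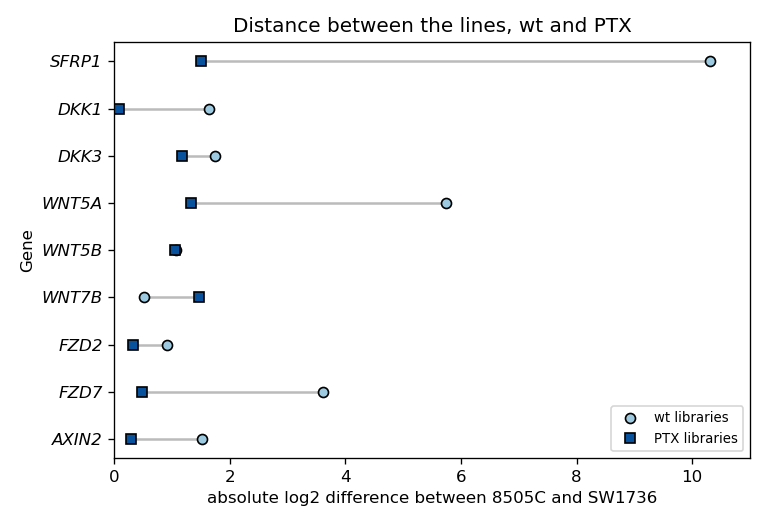
Absolute log2 difference between 8505C and SW1736 for the 9 genes, with circles for the wt libraries and squares for the PTX libraries. The squares lie to the left of the circles for 8 genes, by the widest margin for SFRP1, from 10.31 to just past the limit of 1.5, and to the right for WNT7B. SFRP1 was chosen by its change in SW1736, and the same levels enter its distances.

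In FPKM, which is scaled to length, an antagonist had the highest level of the 10 genes in each library, although SFRP1 was at 0 in SW1736 wt and DKK1 was below WNT7B in SW1736-PTX. The highest level was that of DKK1 in SW1736 wt, of SFRP1 in SW1736-PTX and 8505C wt (127 FPKM, with DKK1 next at 62.2) and again of SFRP1 in 8505C-PTX (125, with DKK3 at 99.3). No ligand or receptor exceeded 30.3 FPKM. The 3 genes with a pattern most like that of SFRP1, by Euclidean distance of log2(FPKM + 0.1) over the 4 libraries, were EPB41L3, a membrane-cytoskeleton linker (distance 1.72), KISS1, which encodes the kisspeptin precursor (2.83), and GJA1, which encodes connexin 43 (2.89). EPB41L3 was listed at 0 for SW1736 wt and reached 112, 175 and 117 FPKM in SW1736-PTX, 8505C wt and 8505C-PTX. KISS1 was at 0.340, 227, 366 and 68.8 FPKM in the order SW1736 wt, SW1736-PTX, 8505C wt and 8505C-PTX, and GJA1 at 0.102, 71.1, 56.4 and 71.7.

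The wider pathway was described with a list of 106 genes that includes the 10. Of these, 10 were listed at 0 in all 4 libraries, among them WNT1, ROR2 and DKK4, and 73 were above 0.5 FPKM in at least 1. In SW1736, 71 were compared, with 10 called higher in SW1736-PTX and 8 lower (25.4%, with 25.9% over all genes), and the median log2 fold change was 0.17 (0.01 over all genes). In 8505C, 67 were compared, with 10 called higher and 0 lower (14.9%, with 20.9% over all genes), and the median was 0.46 (0.11 over all genes). For SW1736-PTX over 8505C wt, 17 of 69 were called higher and 0 lower, where 15.1% and 5.23% of all genes were. These counts include the 10 genes chosen with the data known. Without them, 8 of 62 were called higher and 5 lower in SW1736 (21.0%). In 8505C, 8 of 58 were then called higher and 0 lower (13.8%), and for SW1736-PTX over 8505C wt 14 of 60 and 0 (23.3%). Across the 2 lines 4 genes were called in both: WNT3 and DAAM2 were higher in both PTX lines, and FZD7 and PRICKLE1 went in opposite directions. The share of all genes called in both lines is not given here, so these counts are a description only.

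Of the 19 ligands, 7 were compared in each line. WNT3, a canonical ligand, rose in SW1736, from 1.77 to 6.20 FPKM, and in 8505C, from 1.57 to 6.62. WNT9A was at 0.287 FPKM in wt and 5.76 in PTX cells of SW1736, and at 1.22 in wt and 2.09 in PTX cells of 8505C, and WNT10B at 0.158, 2.90, 2.26 and 1.89. Both were called higher in SW1736 and not in 8505C, and for WNT10B it was SW1736 wt that stood apart from the other 3 libraries. Of the other antagonists, NOTUM, a secreted enzyme that inactivates Wnt proteins, was listed at 0 for SW1736 wt, with a level of 0.882 FPKM in SW1736-PTX, a call, and was at 0.0256 and 0.475 in 8505C, where it was not compared.

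Of the 16 receptors and co-receptors, 13 were compared in each line. FZD7 was the 1 called in SW1736 (25.9% of all genes) and the 1 called in 8505C (20.9%). For SW1736-PTX over 8505C wt, 2 of 13 were called (20.4% of all genes). The R-spondin axis, which stabilizes the receptors, had 3 of 9 genes compared. Its receptor LGR4 was at 11.3 FPKM in wt and 1.23 in PTX cells of SW1736, and at 3.55 in wt and 8.88 in PTX cells of 8505C, a log2 fold change of -3.09 in SW1736 and of 1.30, short of the limit, in 8505C. The ligand RSPO3 was called higher in SW1736-PTX, at 0.0402 and 0.666 FPKM, and was at 0.562 in 8505C wt and 0.345 in 8505C-PTX. Of the 2 genes for Wnt secretion, PORCN and WLS, and the 16 cytoplasmic transducers, which include β-catenin (CTNNB1), 0 were called in SW1736 (25.9% of all genes) and 0 in 8505C (20.9%). In SW1736, WLS (12.5 to 35.5 FPKM, log2 fold change 1.498) and the transducer CSNK1E (40.7 to 114 FPKM, 1.490) only just missed the limit. Against 8505C wt, PORCN (1.56) and the transducer APC2 (1.66) were called higher in SW1736-PTX, where 15.1% of all genes were. CTNNB1 was between 79.6 and 118 FPKM.

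Of the 8 nuclear factors, 7 were compared in each line, with 1 called in SW1736 (25.9% of all genes) and 0 in 8505C (20.9%). The 1 called was TCF7, a relative of LEF1, which was lower in SW1736-PTX (from 8.75 to 2.13 FPKM) and was at 2.59 and 1.86 in 8505C. Of the 10 target and feedback genes, 7 were compared in SW1736, with AXIN2 and NKD2 higher and SP5 lower, and 5 in 8505C, with APCDD1 higher, where 25.9% and 20.9% of all genes were called. SP5 went from 1.45 to 0.213 FPKM in SW1736, and was at 0.0786 and 0.357 in 8505C, where it was not compared. NKD2, a cytoplasmic inhibitor, went from a listed 0 to 2.88 FPKM in SW1736, and was at 0.0496 and 0.476 in 8505C, where it was not compared. APCDD1, a membrane inhibitor, was listed at 0 in both wt libraries and at 0.468 FPKM in SW1736-PTX and 1.18 in 8505C-PTX. In the planar polarity branch, 4 of 10 genes compared were called in SW1736 (25.9% of all genes) and 4 of 9 in 8505C (20.9%), and 4 of 9 for SW1736-PTX over 8505C wt (20.4%). DAAM2, a formin, rose from 0.0243 to 4.32 FPKM and from 0.982 to 11.3. PRICKLE1, a cytoplasmic polarity protein, fell from 22.3 to 0.586 FPKM in SW1736 and rose from 0.930 to 4.19 in 8505C, and SW1736-PTX was below 8505C wt by 0.59 on the log2 scale.

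Of the pathway genes named for a call in SW1736, some kept it against 8505C wt and others did not. The log2 fold change of SW1736-PTX over 8505C wt was 1.92 for WNT3, 2.15 for WNT9A, 2.97 for NOTUM, 4.31 for NKD2 and 2.03 for DAAM2, all of them calls. It was 0.35 for WNT10B, 0.21 for RSPO3, -1.45 for LGR4 and -0.27 for TCF7, short of the limit. For SP5, called lower in SW1736, the sign turned, with a value of 0.81 that was also short of the limit. FZD7, likewise called lower in SW1736, was called higher against 8505C wt, at 1.85.

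**Figure D4:**
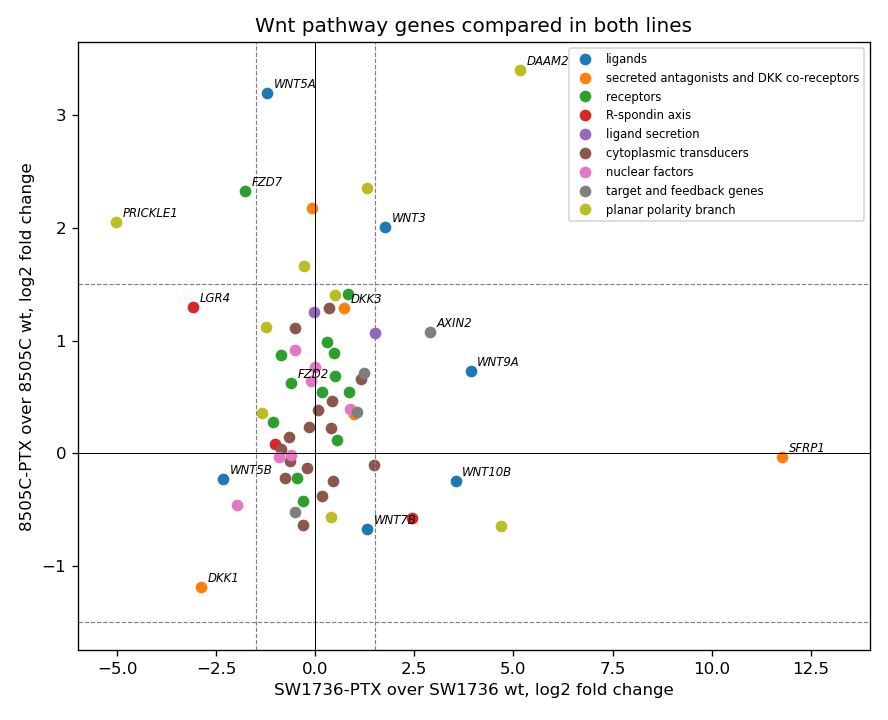
Log2 fold change of SW1736-PTX over SW1736 wt (horizontal axis) and of 8505C-PTX over 8505C wt (vertical axis) for the 65 pathway genes compared in both lines, coloured by role, with dashed lines at -1.5 and 1.5. WNT3 and DAAM2 lie beyond both limits at the upper right, FZD7 and PRICKLE1 at the upper left, and no gene lies below the lower limit of 8505C.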

How the data were processed

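The 4 libraries were grouped by their titles. In the study's methods, single-end reads of 75 bases were mapped with STAR (hg38) and StringTie gave the values per locus; bcl2fastq 2.20 is named in the submitters' processing notes. The annotation and the versions of STAR and StringTie are not given in the sources used here, nor is the strand setting. The FPKM deposited by the authors was analysed after summing rows of 1 gene name. The TPM deposited by the authors served as an alternative. The coverage deposited by the authors, divided by the FPKM, gave the depth of 43.5 to 57.9 M reads. Read counts are not in these tables, and count-based tests were left out. Approximate reads and 95% Poisson or binomial intervals came from this depth and the MANE transcript length of GENCODE release 44, and cover counting error only.

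The limits (0.5 FPKM, log2 fold change of 1.5) are those of the study's methods. The scripts were tested on simulated data. The 10 genes, the pathway list and the marker lists were chosen with earlier results of these data known. Genes outside the 10 were named when called in both lines or among the 2 largest calls of a role, and 3 as most like SFRP1; other genes were named after their values were seen. LEF1 and DKK1 overlap genes of the opposite strand in the tables (LEF1-AS1, listed at 0, and PRKG1-AS1, 0.515 FPKM at most), and SFRP1 overlaps 2 such GENCODE genes not found by name in the tables, so reads may be shared. Alternatives changed the added number, the FPKM minimum, the unit, the centring, the rows used, the limit of the call and the reference library. Promoter sequences were taken from RefSeq (GRCh38). Python 3.11.15, NumPy 2.4.6, pandas 2.3.3, SciPy 1.17.1 and matplotlib 3.10.9 were used.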

Additional observations from a re-analysis of the deposited data

Results flagged for a closer look

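For 7 of the 21 pathway genes that were named by rule, the values moved in opposite directions in the 2 lines with a counting interval that left out 0 in each. SFRP1, listed at 0 in SW1736 wt, has no such interval there and is not among the 7; its log2 fold changes were 11.79 and -0.03. With 1 library per condition the difference between the lines was not tested, and no share over all genes is given beside the 7. The difference of the log2 fold changes, 8505C minus SW1736, was 4.43 for WNT5A, -1.97 for WNT7B, 1.24 for FZD2, 4.10 for FZD7, -3.02 for RSPO3, 4.39 for LGR4 and 7.08 for PRICKLE1. For FZD7 and PRICKLE1 both changes were calls, for WNT5A, RSPO3 and LGR4 1 of them was, and for WNT7B and FZD2 neither was.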

How the results depend on the processing

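The labels give no replicate numbers, and no fit with the lines as blocks was run. Of the 27 log2 fold changes of the 9 genes compared (SW1736, 8505C, and SW1736-PTX over 8505C wt), 0 changed sign under the alternatives that kept the reference library and gave a value. With 8505C wt in place of SW1736 wt, the sign turned for WNT5A (-1.23 to 4.52), FZD7 (-1.77 to 1.85) and FZD2 (-0.61 to 0.31). The counts moved more. No share over all genes is given beside them under the alternatives, so they show only how far the counts depend on the settings. With 1 added to the FPKM, 1 of the 10 genes was called higher in SW1736 and 1 in 8505C, and 6 and 5 pathway genes. With 0.5 FPKM required in both libraries, 0 of the 10 were called higher in SW1736 and 1 in 8505C, and 1 pathway gene in SW1736, whose median became -0.055; SFRP1 and AXIN2 drop out by construction, as does WNT5A against 8505C wt. With any level above 0 compared, and with TPM, LEF1 entered and 1 of the 10 was called lower in 8505C, as was 1 pathway gene, and 1 in SW1736-PTX over 8505C wt. Centred on the median of all genes, which was 0.11 in 8505C, the pathway median there was 0.36. With a limit of 1, 17 pathway genes were called higher and 13 lower in SW1736 and 20 and 1 in 8505C, and of the 10 genes 4 higher and 1 lower in 8505C and 5 higher and 2 lower in SW1736-PTX over 8505C wt. With 8505C wt as the reference for SW1736-PTX, 0 of the 10 genes were called lower. Coverage scaled to depth, added after the data were seen, moved no count by more than 1.5 times. Depth limits WNT5A in 8505C wt (about 7.56 reads), LEF1 (49.0 at most) and AXIN2 in SW1736 wt (50.1).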

Other observations

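The genes around SFRP1 on chromosome 8 that could be compared were not at 0 in SW1736 wt. Of 15 other genes listed within 1 Mb, 8 were compared in SW1736, all of them above 0.5 FPKM in SW1736 wt. The rest were too low to compare in SW1736, and several of them were listed at 0 in SW1736 wt. Among these were ZMAT4 and MIR548AO, which lies within SFRP1 and was at 0.139 FPKM in SW1736-PTX. Of these 8, 0 were called higher in SW1736-PTX and 1 lower, where 15.7% and 10.2% of all genes were. So few genes cannot set these counts apart from that background. Their median log2 fold change was -0.42 (0.01 over all genes). The nearest of them, GOLGA7, which encodes a subunit of a palmitoyltransferase, was at 30.3 FPKM in wt and 23.7 in PTX cells of SW1736, and at 32.6 in wt and 27.7 in PTX cells of 8505C, so the value of 0 in SW1736 wt was not shared by it. The gene called lower was GINS4, a subunit of the replicative helicase, with 19.0 FPKM in wt and 5.40 in PTX cells of SW1736, and 23.1 and 3.09 in 8505C. PLAT, which encodes tissue plasminogen activator, was at 77.8 FPKM in wt and 51.1 in PTX cells of SW1736, and at 118 and 207 in 8505C. These genes were named after their values were seen.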
